A study of Mus musculus with 4 samples.

Results

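The *Myc*, *Max* and *Mxd* network is a small family of transcription factors that bind DNA only as pairs. Its members here were *Myc*, *Mycn*, *Max*, *Mlx*, *Mxd1*, *Mxd3*, *Mxd4*, *Mxi1* and *Mnt*, and every probe set annotated to exactly 1 of these genes was taken. This gave 9 probe sets, 1 per gene, out of the 25175 probe sets in the table and the 21044 that name a single gene, and 0 further probe sets named a member together with another gene. RNA was recovered with an antibody against CUGBP1 (CUGBP1 IP, 2 arrays) or with normal IgG (control IgG, 2 arrays). Both kinds of immunoprecipitate came from cytoplasmic lysates of the same line, C2C12 (LKO1), a mouse myoblast line that carries an empty lentiviral vector, was kept in puromycin and was grown below confluency so that it went on proliferating. CUGBP1, which *Celf1* encodes, binds GU-rich elements in RNA and can bring deadenylases to the transcript. Affymetrix Mouse Gene 1.0 ST arrays were used, 1 for each RNA. The comparison asks which transcripts are associated with CUGBP1 in myoblasts. Input RNA was not analysed here, so a value reflects both how much of a transcript the lysate held and how well it was recovered. In RNA of a whole culture, fewer cells with a transcript and less of it per cell cannot be told apart.

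MYC activates genes of growth and division as a pair with MAX, and the pair binds E-box sequences. The MXD proteins, MXI1 (also called MAD2) and MNT compete with MYC for MAX, bind the same sequences and recruit SIN3 corepressor complexes, so that they oppose MYC. MLX is a second common partner, which pairs with MNT and with some MXD proteins as well as with the glucose-responsive factors MLXIP and MLXIPL. In muscle, high MYC favours proliferation of myoblasts over their differentiation, and *Myc* mRNA is a classic example of a short-lived transcript.

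*Myc* is the member that the study also assayed singly, by RT-PCR on immunoprecipitated RNA, where it served as a negative control. The primer pair listed for *Myc* is shown because it defines the stretch of the transcript that was amplified apart from the arrays. Each primer is 20 bases long and is written 5′ to 3′.
Myc left primer: ctgtccattcaagcagacga
Myc right primer: tccagctcctcctcgagtta

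Values are intensities divided by the 5th percentile of the same array, so a probe set without transcript reads about 1. The arrays differed in brightness. The median of the single-gene probe sets was 1.31 and 1.50 for the CUGBP1 IP, against 1.08 and 1.22 for control IgG. Their 95th percentile was 6.90 and 9.44 for the CUGBP1 IP, against 1.94 and 4.34 for control IgG. Olfactory and vomeronasal receptor probe sets (1205), assumed not to be expressed in myoblasts, gave the background, and their 95th percentiles of 1.23 and 1.29 (CUGBP1 IP) and 1.09 and 1.16 (control IgG) were taken as its upper limit. Of 10 myoblast markers, 7 were above background on all 4 arrays. The 10 summed to 45.4 and 50.1 on the CUGBP1 IP arrays, against 14.5 and 21.2 on the control IgG arrays. The largest part of the CUGBP1 IP sums was *Myod1*, which the study reported as associated with CUGBP1. It read 18.8 and 23.2 on the CUGBP1 IP arrays, against 1.77 and 3.30 on the control IgG arrays. *Cav3*, caveolin 3, was above background on no array, and *Pax7*, a marker of muscle stem cells, read 1.40 and 1.76 on the CUGBP1 IP arrays, against 1.13 and 1.25 on the control IgG arrays. Of 12 markers of differentiated myotubes 2 were above background on all 4 arrays, with sums of 18.0 and 18.9 on the CUGBP1 IP arrays, against 13.3 and 15.1 on the control IgG arrays. Of 17 measured markers of other lineages 1 was, and 10 were above background on none, with sums of 19.9 and 21.3 for the CUGBP1 IP, against 17.8 and 19.2 for control IgG. The part of array brightness in the differences below was not tested.

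Ratios of the network transcripts were modestly above 1, and no member passed the test. The signal-to-negative ratio, the mean CUGBP1 IP value divided by the mean control IgG value, ran from 1.15 for *Mycn* to 2.56 for *Mxd4*. It was above 1 for 9 of 9 members, as it was for 93.3% of all probe sets, and with quantile normalization the difference of *Myc*, *Mycn*, *Mlx* and *Mxd3* turned negative. The antagonists *Mxd4*, *Mxd1*, *Mxi1* and *Mnt* and the partner *Max* had the higher ratios, between 1.84 and 2.56. The antagonist *Mxd3* lay lower, with *Myc*, *Mlx* and *Mycn*, between 1.15 and 1.54. The groups did not overlap, with the CUGBP1 IP values the higher, for 8 of 9 members, against 66.3% of all probe sets. limma called 0 of 9 higher and 0 of 9 lower at an adjusted p under 0.05, where it called 1.95% of all probe sets higher and 0.138% lower. At an unadjusted p under 0.05, 5 of 9 were higher, against 28.6% of all probe sets. The study took the top 5% of ratios as associated with CUGBP1. That cut was taken here over the 21044 single-gene probe sets, which put it at a ratio of 2.57, so the set is not the same as that of the study. In the top 5% defined in this way were 0 of 9 members.

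**Figure D1:**
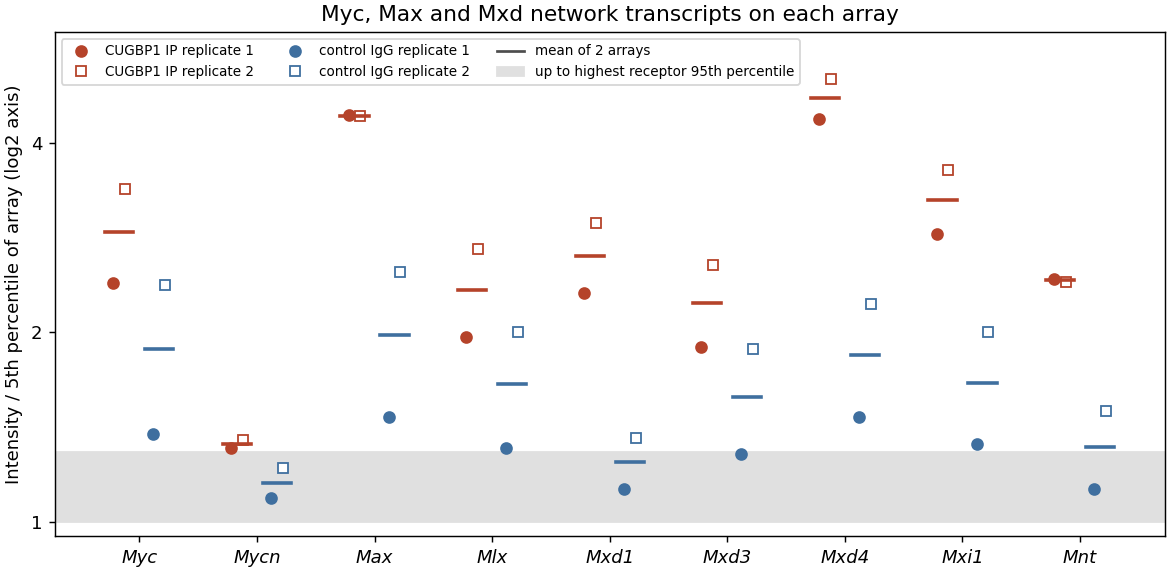
Values of the 9 network members, as intensities in units of the 5th percentile of the array (log2 axis), with 1 point per array, circles for replicate 1, squares for replicate 2 and a line at the mean of each group of 2 arrays. The grey band reaches up to 1.29, the highest receptor 95th percentile of the 4 arrays, and *Mycn* lies in or just above it while *Max* and *Mxd4* read over 4 on both CUGBP1 IP arrays.

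Of the activators, *Myc* read 2.40 and 3.38 on the CUGBP1 IP arrays, against 1.38 and 2.38 on the control IgG arrays (probe set 10424400). The groups touch, since the lower CUGBP1 IP value exceeds the higher control IgG value by less than the gap between the replicates of either group. The log2 difference was 0.65 (SE 0.46, limma adjusted p = 0.270), with means of 2.89 ± 0.693 for the CUGBP1 IP and 1.88 ± 0.707 for control IgG (SD, n = 2 arrays each) and a ratio of 1.54 at percentile 75.7 of all ratios. *Mycn*, the paralog of *Myc* best known from the developing nervous system, read 1.31 and 1.35 on the CUGBP1 IP arrays, against 1.09 and 1.22 on the control IgG arrays (probe set 10399421). It was the only member not above background on all 4 arrays. Its control IgG replicate 1 value lay at the background limit, so its ratio of 1.15 (log2 difference 0.21, SE 0.17, limma adjusted p = 0.318) says little on recovery of the transcript.

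*Max* encodes the partner that MYC, MXD and MNT proteins share, and it had the second highest ratio of the network. It read 4.43 and 4.41 on the CUGBP1 IP arrays, against 1.47 and 2.50 on the control IgG arrays (probe set 10401128), so the groups did not overlap and the CUGBP1 IP replicates nearly coincided. The ratio was 2.23 (percentile 92.4) and the log2 difference 1.21 (SE 0.61, limma adjusted p = 0.169). *Mlx*, which encodes the second partner, read 1.97 and 2.71 on the CUGBP1 IP arrays, against 1.31 and 2.00 on the control IgG arrays (probe set 10381238). *Mlx* was the member whose groups overlapped, with CUGBP1 IP replicate 1 below control IgG replicate 2. Its ratio was 1.41 and its log2 difference 0.51 (SE 0.38, limma adjusted p = 0.281).

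Among the antagonists, *Mxd4* had the highest ratio of the network. It read 4.37 and 5.06 on the CUGBP1 IP arrays, against 1.47 and 2.22 on the control IgG arrays (probe set 10529375), with both CUGBP1 IP values well above both control IgG values. The log2 difference was 1.38 (SE 0.61, limma adjusted p = 0.139). The ratio of 2.56 ranked 1075 of 21044 and lay just under the 95th percentile, 2.57, which 1053 probe sets exceeded. That place beside the limit depends on the arrays used, as *Mxd4* was in the top 5% without CUGBP1 IP replicate 2 or without control IgG replicate 1, and not without either of the other arrays.

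*Mxd1*, the founding member of the MXD group, whose product rises as many cell types stop dividing and differentiate, came closest to a call. It read 2.31 and 2.99 on the CUGBP1 IP arrays, against 1.13 and 1.36 on the control IgG arrays (probe set 10545921). The groups were apart by more than the replicate spread of either. The ratio was 2.13 (percentile 91.3) and the log2 difference 1.08 (SE 0.34, limma adjusted p = 0.0560). It passed the threshold with arrays divided by their medians (limma adjusted p = 0.00308) and with an offset of 1 before log2 (limma adjusted p = 0.0352). These settings called 6.47% and 3.63% of all probe sets higher, against 1.95% with the values as deposited. Across the settings without a replicate block that kept all 4 arrays, the limma adjusted p of *Mxd1* reached 0.302, when the receptor median was subtracted.

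*Mxi1*, named as a MAX interactor, read 2.87 and 3.62 on the CUGBP1 IP arrays, against 1.33 and 2.00 on the control IgG arrays (probe set 10463930). Its ratio was 1.95 and its log2 difference 0.98 (SE 0.47, limma adjusted p = 0.156). *Mnt*, the most widely expressed antagonist, read 2.43 and 2.41 on the CUGBP1 IP arrays, against 1.13 and 1.50 on the control IgG arrays (probe set 10378497). Its ratio was 1.84 and its log2 difference 0.89 (SE 0.33, limma adjusted p = 0.0973). With arrays divided by their medians it was called (limma adjusted p = 0.0287), as were 6.47% of all probe sets. For both genes the groups did not overlap.

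*Mxd3* had the lowest ratio of the antagonists, close to that of *Mlx*. In mouse it is the MXD gene expressed in proliferating cells, around S phase. It read 1.90 and 2.56 on the CUGBP1 IP arrays, against 1.28 and 1.88 on the control IgG arrays (probe set 10409424), so CUGBP1 IP replicate 1 and control IgG replicate 2 were almost level. The ratio was 1.41 and the log2 difference 0.51 (SE 0.35, limma adjusted p = 0.264).

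**Figure D2:**
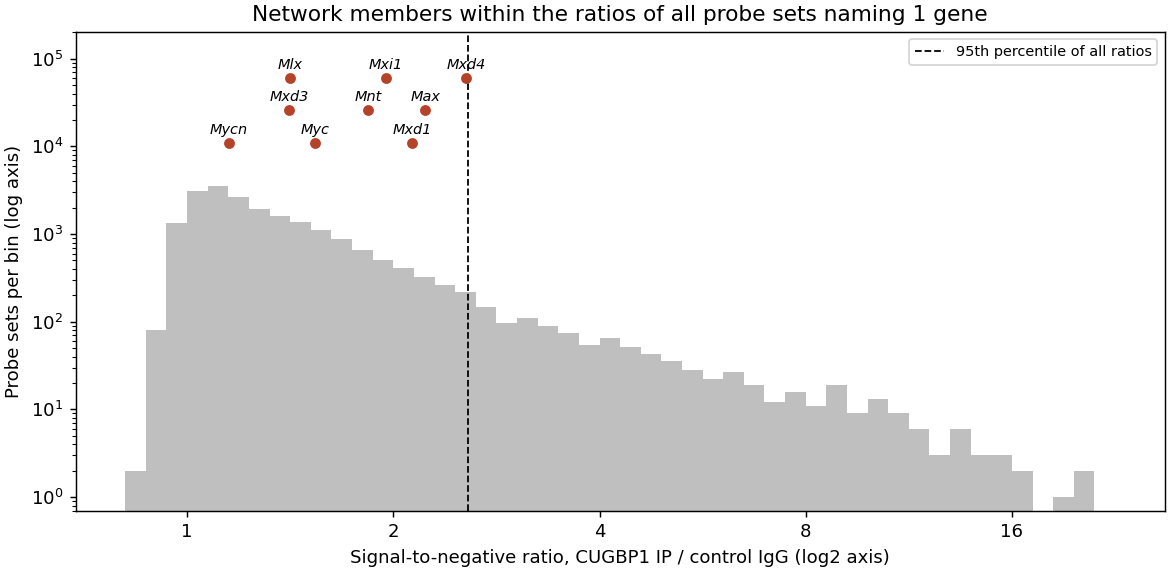
Signal-to-negative ratios (log2 axis) as a histogram of the 21044 probe sets that name 1 gene, counted per bin on a log axis, with the network members as points at arbitrary heights. All 9 points lie left of the dashed 95th percentile at 2.57, with *Mxd4* at 2.56 beside it and *Mycn* at 1.15 near the bulk of the probe sets.

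Ordered by log2 difference, the members ran *Mxd4*, *Max*, *Mxd1*, *Mxi1*, *Mnt*, *Myc*, *Mlx*, *Mxd3* and *Mycn*. The largest gap between neighbours was 0.30, between *Mxd3* and *Mycn*, and the standard errors ran from 0.17 to 0.61. In 7 of the 8 neighbouring pairs the gap was smaller than either standard error, so the order between neighbours is not resolved. The median log2 difference of the members was 0.89, against 0.29 for all tested probe sets, which puts it 0.61 higher. Most probe sets of the table are dim, with 36.7% above background on all 4 arrays, whereas 8 of 9 members were. When the fit was limited to the 7727 probe sets that exceeded background on every array, the median of those 8 members was 0.21 above that of all.

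The scaling of the arrays sets part of these differences. The median log2 difference of all probe sets was 0.29 as deposited, 0.27 with arrays divided by their receptor medians, 0.00066 with arrays divided by their medians and -0.016 with quantile normalization. With array medians *Mycn* turned to -0.08 and the other 8 members stayed above 0. With quantile normalization *Mxd1* had 0.43, *Mnt* 0.28, *Mxd4* 0.21, *Max* 0.05 and *Mxi1* 0.01, while *Myc* had -0.31, *Mlx* -0.33, *Mxd3* -0.29 and *Mycn* -0.08. Quantile normalization thus left *Max*, *Mxd1*, *Mxd4*, *Mxi1* and *Mnt* above *Myc*. *Mycn* and *Mxd3*, which were below *Myc* as deposited, came out above it as well, and only *Mlx* was below. The median of the members was then 0.027 above that of all probe sets.

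**Figure D3:**
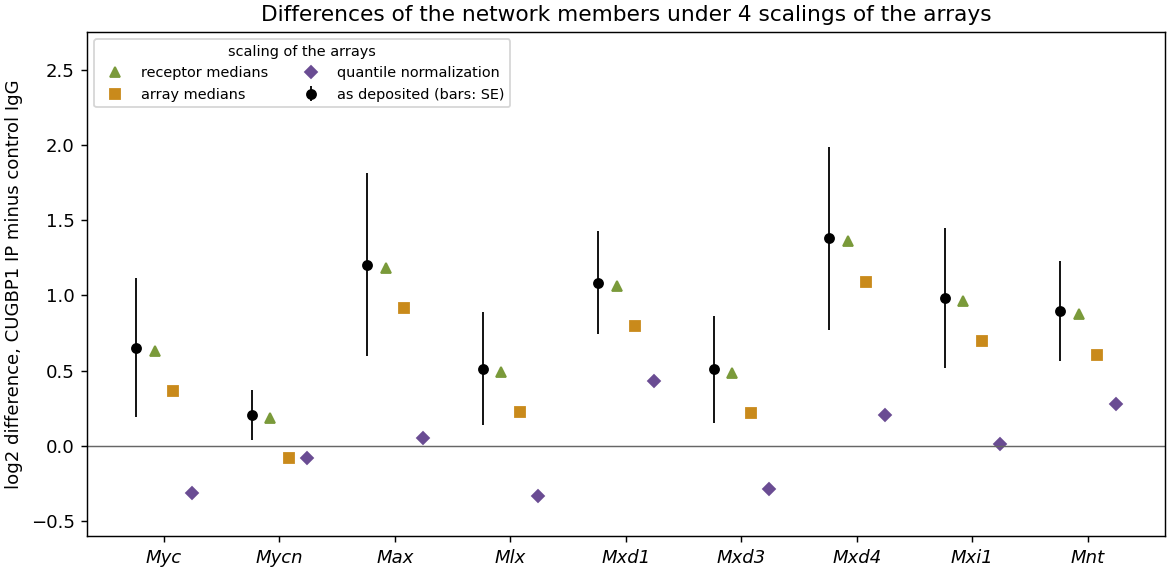
log2 difference, CUGBP1 IP minus control IgG, of the 9 members with arrays as deposited (black, bars are the standard error of limma), divided by receptor medians, divided by array medians and after quantile normalization. *Mxd4* and *Max* are highest as deposited, and *Mxd1* (0.43) and *Mnt* (0.28) are highest after quantile normalization, where *Myc*, *Mycn*, *Mlx* and *Mxd3* fall below 0.

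A value taken relative to *Myc* on the same array does not depend on how whole arrays are multiplied. log2 of the value over that of *Myc* was 0.88 and 0.38 for *Max* on the CUGBP1 IP arrays, against 0.09 and 0.07 on those of control IgG. For *Mxd4* it was 0.86 and 0.58 on the CUGBP1 IP arrays, against 0.09 and -0.10 on the control IgG arrays. For *Mxd1* it was -0.06 and -0.18 on the CUGBP1 IP arrays, against -0.29 and -0.81 on the control IgG arrays, and for *Mxi1* 0.26 and 0.10 against -0.05 and -0.25. The CUGBP1 IP values were thus both above those of control IgG for *Max*, *Mxd4*, *Mxd1* and *Mxi1*, which makes 4 of the 8 other members, against 13.2% of all other probe sets. *Mlx* was below in both, at -0.28 and -0.32 on the CUGBP1 IP arrays, against -0.08 and -0.25 on the control IgG arrays, as were 23.2% of all other probe sets. *Mnt*, *Mxd3* and *Mycn* overlapped. Both shares are over mostly dim probe sets, with 36.7% of all above background on all 4 arrays. A probe set that reads about 1 on every array comes out lower relative to *Myc* in the CUGBP1 IP, as *Myc* read higher there. Shares among bright probe sets alone were not taken. With 2 arrays per group an exact two-sided permutation test cannot go below p = 0.333, so no single one of these differences can be tested in this way.

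**Figure D4:**
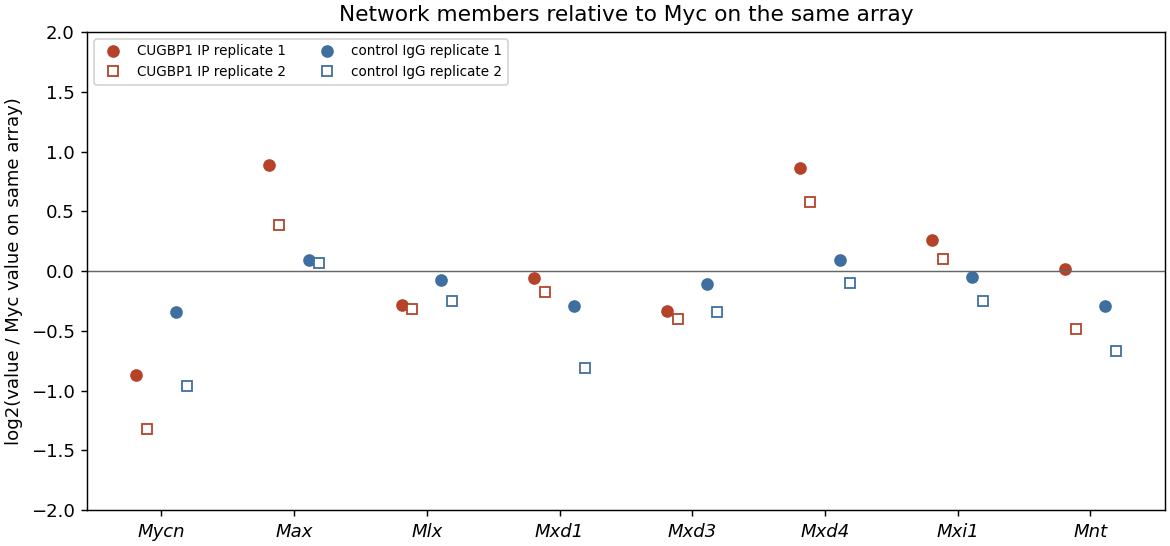
log2 of each member's value over the *Myc* value of the same array, with 1 point per array, circles for replicate 1 and squares for replicate 2. *Max* and *Mxd4* are further above *Myc* in the CUGBP1 IP (0.38 to 0.88) than in control IgG (-0.10 to 0.09).

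The 2 control IgG arrays gave different ratios. Against control IgG replicate 1 alone the ratio of the members ran from 1.22 (*Mycn*) to 3.21 (*Mxd4*), and against control IgG replicate 2 alone from 1.09 (*Mycn*) to 2.12 (*Mxd4*), with medians over all probe sets of 1.31 and 1.13. *Myc* had 2.09 against control IgG replicate 1 and 1.21 against control IgG replicate 2, and *Max* 3.01 and 1.77. The ratio to control IgG replicate 1 was over 1.5 times that to control IgG replicate 2 for 5 of 9 members, *Myc*, *Max*, *Mlx*, *Mxd4* and *Mxi1*. *Mxd1* depended least on the control among the 5 members with the higher ratios, with 2.35 and 1.95. Probe sets without transcript read about 1, and the ratios also changed when such a background was subtracted. With the receptor median of each array subtracted, *Myc* had a ratio of 2.16, *Max* of 3.52, *Mxd4* of 4.48, *Mnt* of 4.76 and *Mxd1* of 7.32. The ratios of *Mnt* and *Mxd1* rest on control IgG values close to 0. Both genes read 1.13 on control IgG replicate 1, whose receptor median of 1.02 was subtracted. limma then called 0 of 21044 probe sets, with 3321 at an unadjusted p under 0.05.

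The probe sets most like *Myc* over the 4 arrays, by root mean square difference of log2 values, were those of *Dctn3*, a dynactin subunit (0.0090), *Commd7* (0.031) and *Reep6* (0.035), with ratios of 1.53, 1.57 and 1.57. Those most like *Mxd4* were *Kctd2* (0.024), *Larp1*, an RNA-binding protein that acts on ribosomal protein mRNAs (0.027), and *Plau*, urokinase (0.031), with ratios of 2.61, 2.51 and 2.58.

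Genes around the network were counted from lists by role, with 1 probe set per gene, where 1.94% of all 19452 genes were called higher, 28.9% were higher at an unadjusted p under 0.05, 4.97% had a ratio above 2.57 (top 5%) and the median log2 difference was 0.29. Of 10 further family members (*Mycl*, *Mga*, *Mlxip*, *Mlxipl* and the related USF and MiT factors) limma called 0, with 4 higher at an unadjusted p under 0.05, and 0 were in the top 5%. Their median log2 difference was 0.43. The brightest of them, *Usf2*, which encodes another E-box binding factor, read 6.07 and 7.81 on the CUGBP1 IP arrays, against 2.36 and 3.69 on the control IgG arrays (ratio 2.29). *Mycl*, the third *Myc* paralog, read 2.09 and 1.90 against 1.11 and 1.38 (ratio 1.60, limma adjusted p = 0.120). Of 21 cofactors of MYC or of its antagonists limma called 0, with 8 higher at an unadjusted p under 0.05, and the median was 0.52. In the top 5% were *Rbbp4*, a histone chaperone of SIN3 and other complexes, with 12.3 and 15.3 on the CUGBP1 IP arrays, against 2.23 and 4.13 on the control IgG arrays (ratio 4.34), and *Mycbp*, which encodes a MYC-binding protein, with 3.74 and 4.53 against 1.31 and 1.69 (ratio 2.76, limma adjusted p = 0.0810).

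Of 16 genes whose products act on the stability of MYC protein limma called 0, with 9 higher at an unadjusted p under 0.05, and 3 were in the top 5%. *Aurka*, the kinase that shields MYCN from degradation, read 5.43 and 9.53 on the CUGBP1 IP arrays, against 1.44 and 2.63 on the control IgG arrays (ratio 3.68). *Pim1*, a kinase that cooperates with MYC, had a ratio of 2.97, and *Gsk3b*, the kinase that marks MYC for degradation, a ratio of 2.73. The median log2 difference over the 16 genes was 0.73. Among probe sets above background on all 4 arrays 0 of 11 genes of this list were in the top 5%, and with the receptor median subtracted 1 of 16 was. Of 40 textbook MYC target genes limma called 0, with 8 higher at an unadjusted p under 0.05, a smaller share than that of all genes, 7 were in the top 5%, and the median was 0.95. *Ccnd1* and *Ccnd2*, both D-type cyclins, had ratios of 6.61 and 4.81. *Ldha*, lactate dehydrogenase A, read 37.2 and 40.7 on the CUGBP1 IP arrays, against 3.28 and 10.3 on the control IgG arrays (ratio 5.76), and *Eif4e*, *Npm1* and *Slc7a5* had ratios of 3.80, 3.63 and 3.25. All 6 of these ratios were over 1.5 times higher against control IgG replicate 1 than against control IgG replicate 2, for example 8.97 and 5.24 for *Ccnd1*, 11.9 and 3.80 for *Ldha* and 7.28 and 2.42 for *Npm1*. Without control IgG replicate 2, 11 of the 40 were in the top 5%, with the receptor median subtracted 3 of 40 were, and among probe sets above background on all 4 arrays 3 of 33 were. Of the cofactors 1 was in the top 5% under either of these settings, and also without control IgG replicate 2.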

How the data were processed

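RNA of 4 immunoprecipitates was measured, 2 with CUGBP1 antibody and 2 with normal IgG, grouped and numbered by their titles. The deposited values are linear intensities with 2 decimals, which the authors divided by the 5th percentile of each array. How probes were summarised, how background was treated and which probe sets were kept is not given in the sources used here. Genes were taken from the platform annotation, with symbols of 20959 of 21044 single-gene probe sets updated through a RefSeq table of assembly GRCm38.p6, used for names only. log2 values without offset were compared with limma 3.58.1 in R 4.3.3 (lmFit, eBayes with intensity trend, two-sided) at a threshold of 0.05, after Benjamini-Hochberg adjustment across 21044 probe sets. The fit was also run on simulated data whose noise was independent between probe sets and between arrays. That run cannot show how the fit handles differences shared by whole arrays. The study itself used the signal-to-negative ratio and no test per transcript.

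Each difference is CUGBP1 IP minus control IgG. SE is the moderated standard error, set by the spread typical of probe sets at that intensity, with almost no weight on a probe set's own spread. *Max* and *Mxd4*, with CUGBP1 IP SDs of 0.014 and 0.488, thus had SEs of 0.609 and 0.610. No label or method states that replicates came from separate cultures, so p-values measure only the spread between these samples, which may be technical, and the number of arrays limits the precision. Every member was named. Genes around the network were named by rule. From each of their lists these were at most 6 genes in the top 5% or called, and the brightest uncalled gene. From the marker lists not every such gene was named. *Mycl*, *Cav3*, *Myod1* and *Pax7* were added after their values were seen. The members and lists were chosen with earlier results of these data known. Other scalings, background subtraction, an offset, filters, no trend, all 25175 probe sets, a replicate block and each array left out were tried.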

Additional observations from a re-analysis of the deposited data

How the results depend on the processing

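limma called 0 of 9 members higher. It called 2 with arrays divided by their medians (*Mxd1* and *Mnt*), where it called 6.47% of all probe sets higher. It called 1 with an offset of 1 (*Mxd1*), where it called 3.63%, and 0 under the other scalings, filters and variance model. With the values as deposited it called 1.95% of all probe sets higher. With an array left out 1 residual degree of freedom remains, and limma called 0 of all probe sets. Taken with the replicate number as a block, 8 of 9 members were called, and so were 11809 of 21044 probe sets (56.1%). The deviations of same-numbered arrays from their group means correlated at 0.639 across probe sets, a single value with 2 pairs, and no label or method states that a number marks a shared lysate. Calls lower were 0 in each setting. The top 5% held 0 members, 1 with quantile normalization, 1 with the receptor median subtracted (*Mxd1* both times), 1 when all 25175 probe sets were used (*Mxd4*), and 0 to 1 with an array left out. The top 10% held 3. The median of the members relative to all was 0.61, against 0.027 with quantile normalization, 0.84 with the receptor median subtracted, 0.21 among probe sets above background on all 4 arrays and 0.32 among those above background on both arrays of a group. It ran from 0.52 to 0.71 with an array left out. Under quantile normalization *Myc* (-0.31), *Mycn* (-0.084), *Mlx* (-0.33) and *Mxd3* (-0.29) changed sign, and under array medians *Mycn* (-0.083) did. The cause of these changes was not tested. Of 125 recomputed member differences 5 changed sign and 109 kept their direction and their side of the threshold. The other 11 passed the threshold where the fit to the deposited values without a block had not, and 8 of these 11 came from the replicate block. Values near 1, as for *Mycn*, carry little information on recovery at this signal over background.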
